A study of Mus musculus with 6 samples.

Results

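Fibronectin, the fibulins, periostin, TGFBI and osteopontin are secreted glycoproteins that cells use to attach to and organise the matrix around them. With earlier results of these data known, 9 genes were chosen by name, from the gene names printed in the scanner files. These genes were Fn1, Fbln1, Fbln2, Fbln7, Efemp1, Efemp2, Postn, Tgfbi and Spp1. They were measured by 11 of the 55681 non-control probes of a mouse whole-genome array, and all 9 of these, out of 36499 genes on the array, were among the 21960 genes tested. RNA came from primary myoblasts, the precursors of skeletal muscle fibres, which had been sorted by flow cytometry from skeletal muscle of 3-month-old male C57BL/6 mice and grown in medium with serum. The treated cells had received TGFb for 4 days (3 arrays), and the untreated cells had not (3 arrays). All 6 samples shared the strain, sex, age and medium. The sources used here do not give the TGFb isoform, its dose or the sorting gate.

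Fibronectin is assembled by integrin-bearing cells into fibrils on which collagens and latent TGFb are laid down. Fibulins are built from repeated epidermal growth factor-like modules and bind elastic fibres, basement membranes and fibronectin. Periostin and TGFBI share fasciclin domains and bind integrins and collagen, and osteopontin is an acidic phosphoprotein with an integrin-binding site that is also a cytokine. In muscle, fibronectin and periostin are abundant in injured and fibrotic tissue, and osteopontin is made by myoblasts and by macrophages.

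The arrays were scanned on 2 days, each holding both groups. Day 1 held TGFb replicate 1 with untreated replicates 1 and 2, and day 2 held the other arrays. Day changed the signal of 55.5% of genes (adjusted p under 0.05 for the day term in limma), and of 4 of the 9 members, so each difference is given with group as the only term and in a day-adjusted fit, which has scan day as a second term. Whether the days also separate cultures or RNA preparations is not stated. Untreated replicates 1 and 2 correlated at 0.996 across genes, more closely than any other pair (0.902 to 0.982), and their scanner files carry the same number, although the labels call them biological replicates. The 75th percentile of intensity ran from 876 to 1569 over the arrays, and no member probe was saturated. A signal below is a log2 value relative to that percentile of its own array, and a difference is TGFb minus untreated on that log2 scale.

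The probe of Spp1 and promoter stretches of some members are shown first, as a description. The later values come from probes, and none of them refers to a promoter. The Spp1 probe lies at chr5:104868502-104868561 (mm9), and it reads in an open frame through the codons of the integrin-binding motif that thrombin exposes in osteopontin, shown here in capitals over 7 codons.
Spp1 probe: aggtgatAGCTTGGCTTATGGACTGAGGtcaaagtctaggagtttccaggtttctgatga
Of the 9 genes, 8 had a promoter entry in RefSeq (GRCm38.p6), and Fn1 had none. The stretches printed are the 250 bases before the start on the plus strand, with each CAGAC or its reverse complement, the core of the SMAD-binding element, in capitals. Fbln2 and Spp1 are shown as the 2 members that rose with group as the only term, Efemp1 as a member with lower signal after TGFb, and Tgfbi as the gene named after its induction by TGFb.
Fbln2 promoter, chr6:91212514-91212763: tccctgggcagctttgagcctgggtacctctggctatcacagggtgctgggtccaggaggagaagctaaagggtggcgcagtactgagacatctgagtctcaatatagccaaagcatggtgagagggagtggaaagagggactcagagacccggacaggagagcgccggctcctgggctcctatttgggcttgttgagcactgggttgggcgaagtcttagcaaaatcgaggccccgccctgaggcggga
Spp1 promoter, chr5:104434861-104435110: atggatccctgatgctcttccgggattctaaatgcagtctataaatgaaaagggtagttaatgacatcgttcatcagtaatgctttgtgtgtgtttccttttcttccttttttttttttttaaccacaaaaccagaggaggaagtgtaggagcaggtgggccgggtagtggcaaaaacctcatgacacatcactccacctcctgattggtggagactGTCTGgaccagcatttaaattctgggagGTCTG
Efemp1 promoter, chr11:28852955-28853204: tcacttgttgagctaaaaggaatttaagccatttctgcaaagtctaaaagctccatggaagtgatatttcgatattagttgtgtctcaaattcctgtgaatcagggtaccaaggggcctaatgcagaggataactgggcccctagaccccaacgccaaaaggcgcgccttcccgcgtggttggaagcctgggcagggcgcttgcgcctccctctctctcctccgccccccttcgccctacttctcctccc
Tgfbi promoter, chr13:56609336-56609585: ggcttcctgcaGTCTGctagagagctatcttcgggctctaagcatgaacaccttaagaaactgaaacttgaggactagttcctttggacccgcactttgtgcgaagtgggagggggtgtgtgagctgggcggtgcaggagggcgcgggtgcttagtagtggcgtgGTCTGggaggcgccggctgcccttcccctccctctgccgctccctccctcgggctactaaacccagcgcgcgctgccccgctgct
The printed Spp1 window held 2 such boxes, at 33 and 5 bases before the start, and the Tgfbi window 2, at 239 and 85 bases. Of the windows not printed, Spp1 window 2 held 1, at 41 bases. Fbln1 windows 1 and 2, which overlap, held 2 each, Efemp2 window 1 held 2 and Postn window 1 held 1. The other windows not printed, of Efemp2, Postn and Fbln7, held none. The Fbln2 and Efemp1 windows held none, while 42.2% of all 32851 promoter windows of this length held at least 1. The AP-1 letters TGANTCA, searched on both strands, were found in 1 of the 13 windows of the members, that of Efemp1, 154 bases before the start, and in 6.75% of all windows. A match of letters is a description and says nothing of binding.

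After TGFb, Fbln2 and Spp1 rose more than 5-fold, and in both genes all treated arrays lay above all untreated ones. They were the 2 of 9 members past the threshold with group as the only term (limma, adjusted p under 0.05), where 0.697% of all genes were called higher, and 0 members were called lower, against 0.701% of all genes (2 members, Fbln7 and Efemp1, were lower at an unadjusted p under 0.05). In the day-adjusted fit, Fn1 and Efemp2 also rose (4 of 9, against 4.6% of all genes), and 2 of 9 were called lower, against 5.54% of all genes. Of these 2, Fbln7 fell, whereas Efemp1 was well above background on the untreated arrays alone, passed the filter through them and so had to be lower. Fbln1, Postn and Tgfbi did not pass either test. With untreated replicates 1 and 2 counted as 1 sample, no member passed limma with group alone. No gene of any kind passed there, so that result does not set the members apart. Fbln2, Efemp1 and Spp1 passed the day-adjusted fit, Efemp1 again through the filter. The count over all genes in that fit is given in the last section. The arrays of the groups did not overlap for 7 members (18% of all genes), 5 of them with TGFb above (8.5% of all genes) and 2, Fbln7 and Efemp1, with TGFb below (9.49%). In all 9 members the sign of the difference was shared by the days, as it was in 67.8% of all genes. The median log2 difference of the members was 0.34, and 0.46 in the day-adjusted fit, against 0.05 and 0.04 over all genes. In these bulk samples fewer cells of a type and less RNA per cell cannot be told apart.

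**Figure D1:**
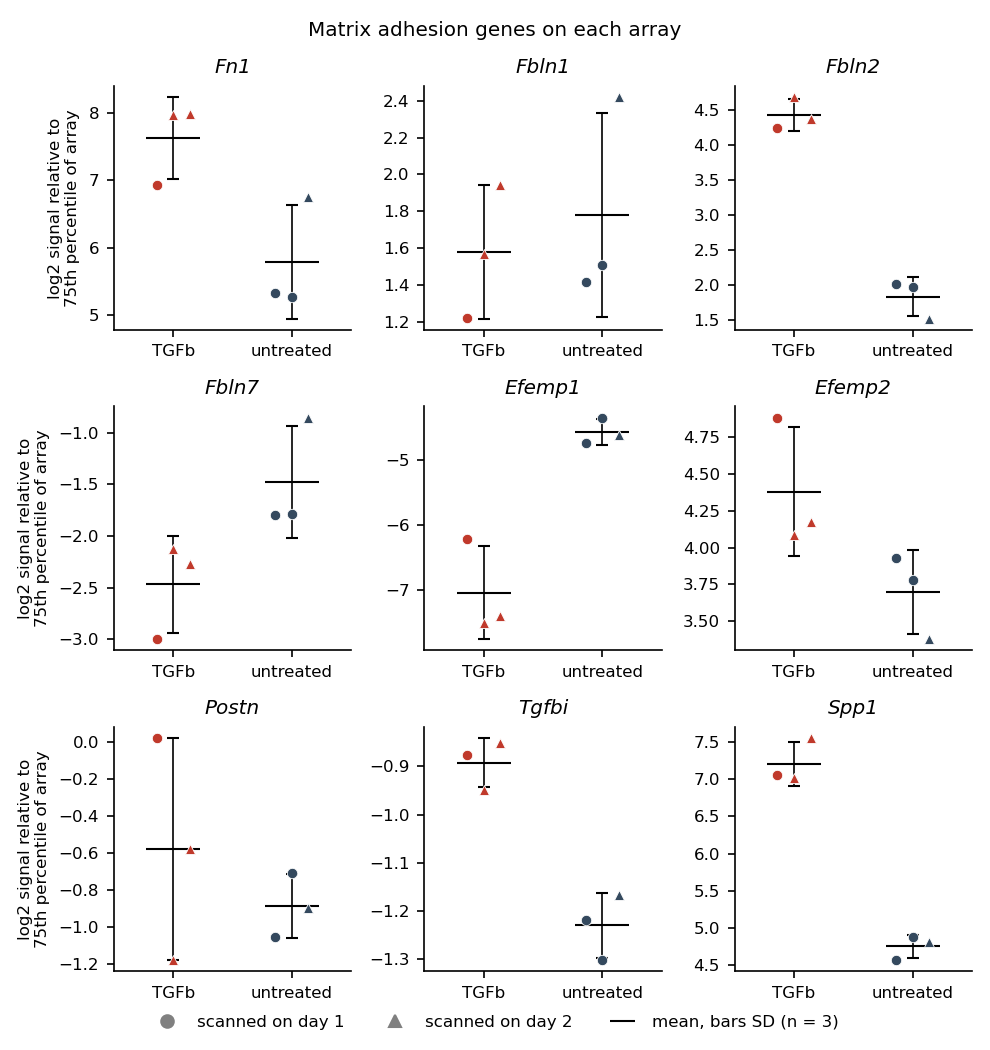
Log2 signal of the 9 genes on each array, relative to the array's 75th percentile, with TGFb arrays on the left and untreated arrays on the right of each panel. Circles were scanned on day 1 and triangles on day 2; lines and bars are the mean and SD of 3 arrays. Fbln2 and Spp1 separate the groups by more than 2 log2 units, whereas Fn1 of untreated replicate 3 (6.75) lies just under TGFb replicate 1 (6.92).

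Fibronectin, the product of Fn1, is the scaffold on which much of the fibrotic matrix is assembled. The single Fn1 probe (chr1:71632116-71632175, mm9, minus strand) had log2 signals of 6.92, 7.96 and 7.98 on TGFb arrays 1 to 3, against 5.33, 5.27 and 6.75 on untreated arrays 1 to 3. The groups did not overlap, but in both groups the day 2 arrays stood about 1 unit or more above the day 1 arrays. The day term was 1.25 (adjusted p = 0.00247 in limma). Fn1 was 1.84 ± 0.53 higher after TGFb with group as the only term (SE, n = 3 per group; limma adjusted p = 0.233), which did not pass. Fn1 rose in the day-adjusted fit by 1.42 ± 0.16 (adjusted p = 0.00767), a 2.68-fold difference with a 95% interval of 1.02 to 1.82 on the log2 scale. Within day 1 the difference was 1.62 and within day 2 it was 1.22. Leaving out single arrays from the fit with scan day gave 1.22 to 1.62, with adjusted p of 0.0132 to 0.0586. Without TGFb replicate 1 or untreated replicate 3 only 1 day held both groups. For every gene such a fit returns the difference within that day, so the ends of this range are no separate check. Fn1 passed without TGFb replicate 2 or 3 and missed the threshold without TGFb replicate 1 or any 1 of the untreated arrays.

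Among the fibulins, Fbln2, which encodes a large fibulin of basement membranes and elastic fibres that binds fibronectin, rose most. Its probe (chr6:91222118-91222177, mm9) had log2 signals of 4.24, 4.68 and 4.36 on the TGFb arrays, against 2.01, 1.98 and 1.51 on the untreated arrays. Every treated array lay more than 2 units above every untreated array. Fbln2 rose by 2.60 ± 0.28 (SE, n = 3 per group; limma adjusted p = 0.0187), which is 6.05-fold. The day-adjusted rise was 2.63 ± 0.23 (adjusted p = 0.00407). The differences within the days were 2.25 and 3.01, and the day term was small (-0.10, adjusted p = 0.741). With group as the only term the call did not hold when any array other than untreated replicate 3 was left out (adjusted p = 0.0416 to 0.145, log2 difference 2.44 to 2.69). The fits that lost the call passed only 0 to 56 of all 21960 genes. Day-adjusted, the call of Fbln2 held without each of the 6 arrays (adjusted p = 0.0107 to 0.0429).

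Efemp2 encodes a short fibulin that recruits lysyl oxidase to tropoelastin. Its probe (chr19:5481762-5481821, mm9) gave log2 signals of 4.88, 4.08 and 4.17 after TGFb, against 3.93, 3.78 and 3.38 in untreated cells. The lowest treated value thus lay close above the highest untreated one, and each group was higher on day 1. The difference was 0.68 ± 0.33 (limma adjusted p = 0.534) with group alone, which did not pass, and Efemp2 rose by 0.89 ± 0.15 in the day-adjusted fit (adjusted p = 0.0253), or 1.85-fold. Leaving out single arrays from the day-adjusted fit gave 0.75 to 1.03, and the adjusted p passed without TGFb replicate 2 or 3 and did not without the others (0.0316 to 0.138).

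Efemp1, the other short fibulin, which is best known from the retinal basement membrane, was dim throughout. The intensities of its probe (chr11:28826647-28826706, mm9) were 12.8, 6.57 and 7.97 on the TGFb arrays, none well above background, against 32.9, 48.95 and 64.3 on the untreated arrays, all well above background. On this scale only a bound can be given, and Efemp1 was at least 1.96-fold lower after TGFb (limma adjusted p = 0.0587 with group alone and 0.0131 in the day-adjusted fit). The probe entered these tests through the untreated arrays alone, so the p-values are given as a description. The bound sets the mean of the untreated arrays against the mean, over the treated arrays, of the higher of the probe's own signal and the lowest signal that was well above background. The size depends on how background is treated: the log2 difference of Efemp1 was -0.63 after normexp correction (limma adjusted p = 0.383) and -0.74 in the authors' deposited table (adjusted p = 0.0186), both smaller than the bound.

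Fbln7, a fibulin first described in teeth and cartilage, had 2 probes. The brighter one (chr2:128722710-128722769, mm9) gave log2 signals of -3.00, -2.12 and -2.27 on TGFb arrays, against -1.79, -1.79 and -0.85 on untreated arrays. Treated arrays were lower than untreated ones on both days, and the day 2 arrays were the higher ones of each group. The difference of -0.99 ± 0.41 (limma adjusted p = 0.432) did not pass with group alone. Fbln7 fell, day-adjusted, by 1.28 ± 0.14 (adjusted p = 0.00732). The dimmer probe (chr2:128721383-128721442) had -3.17, -3.32 and -3.76 on TGFb arrays, against -1.92, -1.84 and -2.13 on untreated arrays. Where every probe was fitted on its own, this one differed by -1.45 ± 0.28 with group alone (adjusted p = 0.0997), and by -1.35 ± 0.18 with scan day (adjusted p = 0.0158). Both probes thus placed all treated arrays below all untreated ones. The scan-day call of Fbln7 held without TGFb replicate 2 or 3 and was lost without any of the other arrays (adjusted p = 0.0103 to 0.0858).

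Fbln1, the founding member of the family, which binds fibronectin and laminin, showed no change past the threshold. The brighter probe (chr15:85115998-85116057, mm9) read 1.22, 1.57 and 1.94 on TGFb arrays, against 1.42, 1.51 and 2.42 on untreated arrays. The groups overlapped, and untreated replicate 3 held the highest value. The log2 difference was -0.20 ± 0.38 (limma adjusted p = 0.851) with group alone, and -0.45 ± 0.19 in the day-adjusted fit (adjusted p = 0.203; 95% interval -0.93 to 0.03). A second probe (chr15:85115550-85115609) gave -1.05, -1.39 and -0.34 after TGFb, against -0.60, -0.51 and -0.14 in untreated cells, again with overlap. With group alone the 95% interval of the brighter probe was -1.14 to 0.73. The intervals leave room for a decrease of up to about 1 log2 unit in Fbln1, and for a rise of up to 0.73.

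Periostin and TGFBI, the pair with fasciclin domains, did not pass any test, although both are widely used as TGFb-induced matrix genes. The Postn probe (chr3:54194840-54194899, mm9) had log2 signals of 0.02, -1.18 and -0.58 on TGFb arrays, against -1.05, -0.71 and -0.90 on untreated arrays. TGFb replicate 1 was the highest array and TGFb replicate 2 the lowest, so the treated group spanned the untreated one. The difference was 0.31 ± 0.37 (limma adjusted p = 0.786) with group alone and 0.46 ± 0.30 in the day-adjusted fit (adjusted p = 0.376; 95% interval -0.28 to 1.21). It was 0.90 within day 1 and 0.02 within day 2.

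Tgfbi (chr13:56740460-56740519, mm9) was the tightest of the members. Its log2 signals were -0.88, -0.95 and -0.85 on TGFb arrays, against -1.22, -1.30 and -1.17 on untreated arrays. No treated array overlapped an untreated one, and both group SDs were small (0.05 and 0.07). The difference of 0.34 ± 0.23 (limma adjusted p = 0.674) did not pass, nor did that in the day-adjusted fit (0.33 ± 0.14, adjusted p = 0.206), where the 95% interval was -0.02 to 0.67. The SE of limma draws on the spread of all genes and is wider than these arrays alone would give. Within the days Tgfbi differed by 0.38 and 0.27.

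Osteopontin, the product of Spp1, is a secreted ligand of integrins and of CD44. Its probe, printed above, read 7.05, 7.01 and 7.55 on TGFb arrays, against 4.57, 4.88 and 4.81 on untreated arrays. The treated arrays lay more than 2 units above the untreated ones, and scan day moved the gene little (day term 0.16, adjusted p = 0.559). Spp1 rose by 2.45 ± 0.28 (SE, n = 3 per group; limma adjusted p = 0.0204), or 5.45-fold, and by 2.40 ± 0.21 in the day-adjusted fit (adjusted p = 0.00442). The differences within the days were 2.32 and 2.47. With group alone the call held without untreated replicate 3 and was lost without any other single array (adjusted p = 0.0484 to 0.171). The group-only fits that lost it passed only 0 to 56 of all 21960 genes. The day-adjusted call was lost without untreated replicate 3 and it held without each of the others (0.00665 to 0.0689). Across the 12 fits that left out an array, the difference stayed between 2.27 and 2.54.

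**Figure D2:**
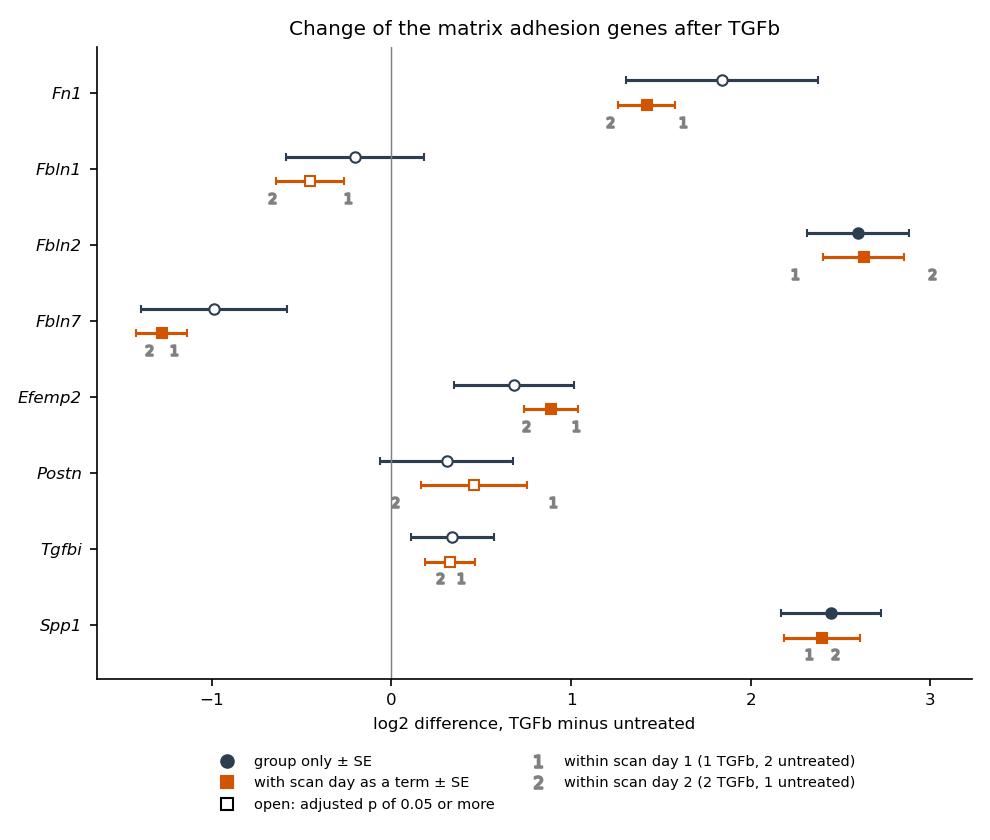
Log2 difference between TGFb and untreated arrays for 8 of the 9 genes, with group as the only term (circles) and in the day-adjusted fit (squares), bars being SE; filled symbols have an adjusted p under 0.05. The digits give the differences within scan day 1 and within scan day 2. Fbln2 and Spp1 are filled in both fits, and Fn1, Fbln7 and Efemp2 only in the day-adjusted fit. Efemp1, which has a bound alone, is left out.

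The authors' deposited table of normalized log2 values gives another view of the same arrays. Across the tested genes the difference between the scan days had an SD of 1.43 in the scaled scanner signal and of 0.286 in the authors' deposited table, for which the sources used here do not name a normalization. In the authors' deposited table Fn1 had 17.97, 17.91 and 17.67 on TGFb arrays, against 16.35, 16.46 and 16.37 on untreated arrays. The day split of Fn1 was absent there, and the difference of 1.45 passed limma with group alone (adjusted p = 0.000559). The same 6 members passed in the authors' deposited table with group alone as passed in the scanner values in the day-adjusted fit, and all 6 in the same direction. Efemp1 had to be lower through the filter, so its direction is no separate check. Of all genes, 10.1% passed the day-adjusted fit, and more passed in the authors' deposited table, as counted in the last section. Postn in the authors' deposited table had 11.32, 8.56 and 9.17 after TGFb, against 10.31, 10.51 and 8.87 in untreated cells. There the day 2 arrays of Postn were the lower ones in both groups, and the difference was -0.21 (limma adjusted p = 0.889), opposite in sign to the scanner values. Within days 1 and 2 the Postn difference there was 0.91 and -0.0002, against 0.90 and 0.02 in the scanner values. Fbln2 in the authors' deposited table also had lower day 2 arrays, with 15.38, 14.66 and 14.22 after TGFb, against 13.02, 12.94 and 11.39 in untreated cells.

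**Figure D3:**
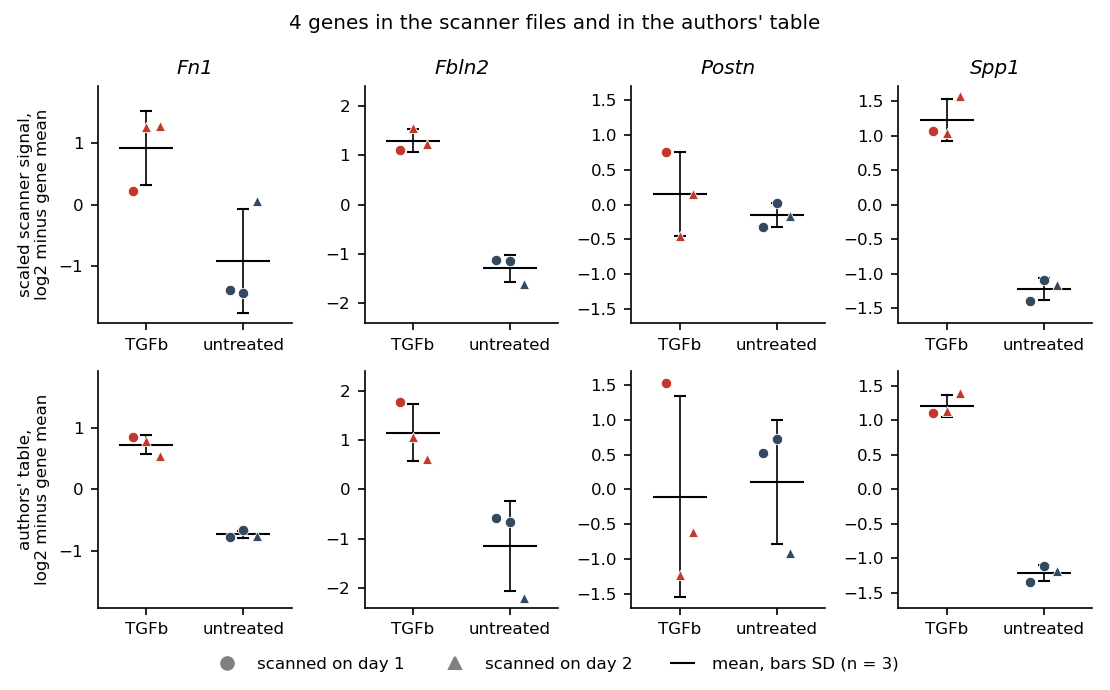
Values of Fn1, Fbln2, Postn and Spp1 on each array, minus the gene's mean over the 6 arrays, from the scaled scanner signal (top) and the authors' normalized table (bottom). TGFb arrays are on the left and untreated arrays on the right of each panel, circles were scanned on day 1 and triangles on day 2, and bars are the SD of 3 arrays. The day 2 arrays of Fn1 stand above those of day 1 in the scanner signal and not in the authors' table, and those of Postn stand below in the authors' table.

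The receptors of these ligands moved in both directions. The receptor list held 11 genes, integrin subunits and Cd44, of which 10 were tested. With group alone 0 of them passed limma, against 1.4% of all genes (at an unadjusted p under 0.05, 2 higher and 3 lower). In the day-adjusted fit 1 was called higher and 3 lower, against 4.6% and 5.54% of all genes. The median log2 difference in that fit was 0.16, against 0.04 over all genes. The median with group alone had the other sign (-0.17, against 0.05 over all genes). Itgb3, the subunit that pairs with the alpha V chain to bind fibronectin and osteopontin, rose by 2.83 ± 0.16 in that fit (limma adjusted p = 0.00188), and differed by 2.47 ± 0.48 with group alone (adjusted p = 0.0895). Itgb6, whose heterodimer with alpha V binds latent TGFb, fell by 2.39 ± 0.41 in the day-adjusted fit (adjusted p = 0.0259). Itga9, the alpha subunit of a receptor for osteopontin, fell by 1.16 ± 0.20 (adjusted p = 0.0261). The last of the 3, Itga8, was well above background on 1 of 3 TGFb arrays and on all untreated arrays, so its call rests on values at background and is given no fold.

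Genes of fibronectin fibril assembly gave 1 rise among 10 tested with group alone, against 0.697% of all genes. In the day-adjusted fit 2 rose and 0 fell (median 0.15), against 4.6% and 5.54% of all genes. Tnc, a matrix glycoprotein that binds fibronectin, rose by 4.33 ± 0.46 (limma adjusted p = 0.0168). Bmp1, the protease that trims procollagens, rose by 1.72 ± 0.16 in the day-adjusted fit (adjusted p = 0.00494). Ltbp1, a latent TGFb binding protein, and the cross-linking enzyme Tgm2 had differences of 0.47 and -0.38 in that fit (adjusted p = 0.183 and 0.214).

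Elastic fibre partners of the fibulins gave 2 rises among 7 tested with group alone, against 0.697% of all genes. In the day-adjusted fit they gave 2 rises and 1 fall (median 0.31), against 4.6% and 5.54% of all genes. Lox, the cross-linker that Efemp2 recruits, rose by 3.23 ± 0.41 (limma adjusted p = 0.025), and Mfap4, a microfibril-associated protein, by 1.78 ± 0.27 (adjusted p = 0.0416). The call of Mfap4 was lost in the authors' deposited table (1.42, adjusted p = 0.059), with every probe tested on its own (adjusted p = 0.0512), and with group alone when any single array was left out (adjusted p = 0.0719 to 0.283). Without any 1 array other than untreated replicate 3, the group-only fits passed only 0 to 56 of all 21960 genes. The day-adjusted difference of Mfap4 was 1.69 ± 0.17 (adjusted p = 0.00561). The fibrillin Fbn2 fell by 1.29 ± 0.16 in the day-adjusted fit (adjusted p = 0.0108), and Fbn1 had a difference of 0.41 ± 0.20 (adjusted p = 0.249). Eln, the elastin gene, and Mfap5 were not well above background on enough arrays to be tested.

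Among relatives of the members, 6 of 9 were tested. With group alone 0 of these passed limma, against 1.4% of all genes (at an unadjusted p under 0.05, 1 higher and 1 lower). In the day-adjusted fit 1 rose and 2 fell, against 4.6% and 5.54% of all genes. Fbln5, the remaining short fibulin, rose by 0.79 ± 0.14 in that fit (limma adjusted p = 0.0263). Stab2, a receptor with fasciclin domains, fell by 1.22 ± 0.16 (adjusted p = 0.013), and Dmp1, a relative of osteopontin from mineralised tissue, by 0.86 ± 0.15 (adjusted p = 0.0261). Hmcn1, a giant relative of the fibulins, differed by 0.72 ± 0.25 (adjusted p = 0.139) and reached well above background on 2 of the 3 untreated arrays. Fbn1 stands in 2 of the 4 lists, and together 3 of 32 tested genes passed with group alone and 12, Itga8 included, in the day-adjusted fit, where 1.4% and 10.1% of all genes passed. With group alone, no gene of these lists passed limma when any single array other than untreated replicate 3 was left out, Tnc and Lox included. Few genes of any kind passed there. These fits called 56, 0 and 2 of all 21960 genes without TGFb replicates 1, 2 and 3, and 0 without untreated replicate 1 or 2.

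**Figure D4:**
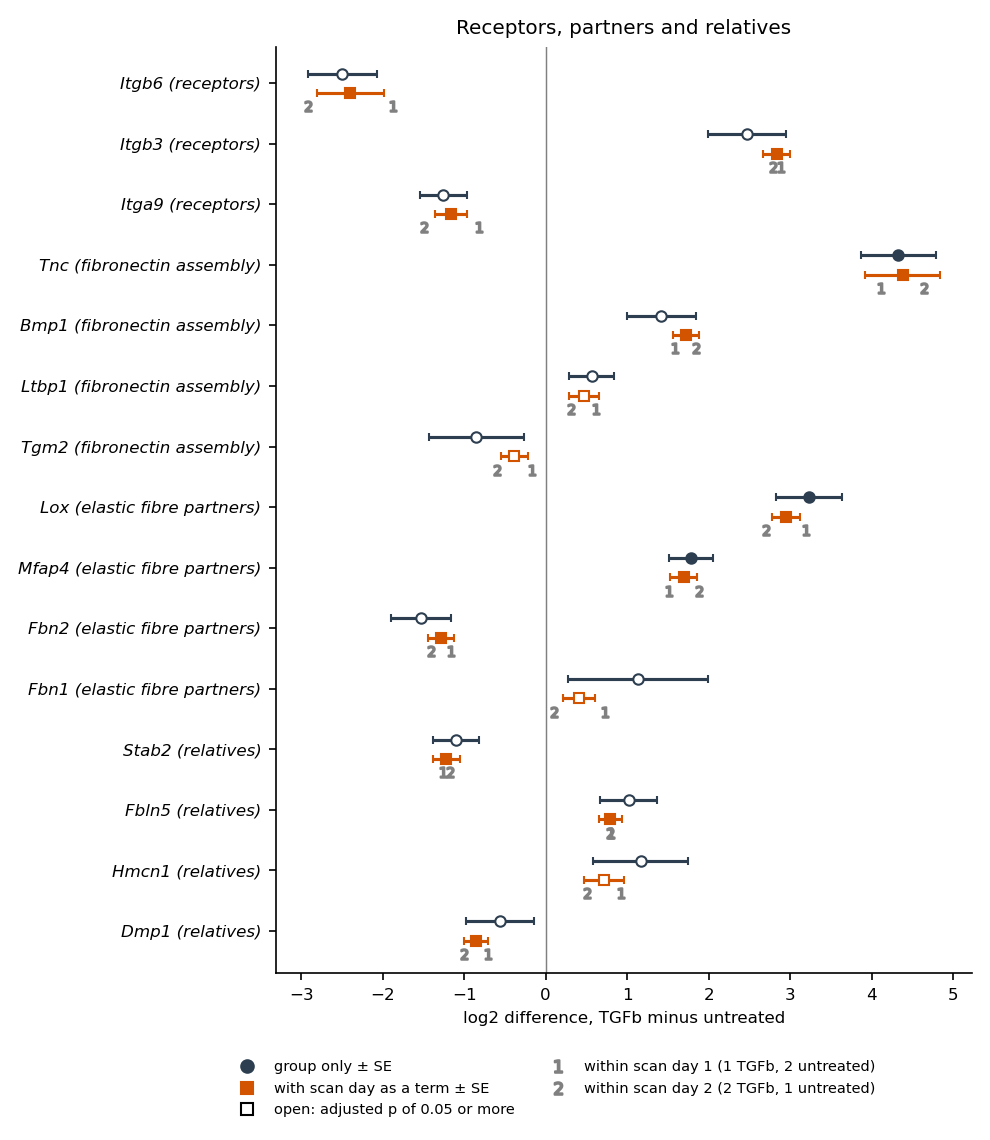
Log2 difference between TGFb and untreated arrays for the 4 genes with the smallest adjusted p in each list of receptors, assembly genes, elastic fibre partners and relatives, without Itga8; symbols are as in the plot of the members' changes. Tnc, Lox and Mfap4 are filled with group alone, and Itgb3 and Itgb6 lie on opposite sides of 0.

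Among genes known to respond directly to TGFb, Ccn2, Skil, Smad7 and Pmepa1 were each higher on every treated array than on any untreated one. Ccn2 passed with group alone, and Skil, Smad7 and Pmepa1 rose in the day-adjusted fit. Skil, a repressor of SMAD signalling, rose by 1.20 ± 0.16 in that fit (limma adjusted p = 0.0122). Myoblast markers were well above background on all 6 arrays for 6 of 7 genes, Pax7 and Myod1 among them, and Myf5 on 1 array. Their summed intensity, in multiples of the array's 75th percentile, was 315 to 505 on TGFb arrays, against 459 to 680 on untreated arrays. Des, Cdh15 and Myog, 3 of the 6 tested, were lower on every treated array than on any untreated one, against 9.49% of all genes. The median log2 difference in the day-adjusted fit was -0.52, against 0.04 over all genes. At an unadjusted p under 0.05 in that fit (limma) 5 were lower and 0 higher, and only Des passed the threshold. Myog, the brightest, had 7.22, 7.21 and 7.57 on TGFb arrays, against 7.81, 7.70 and 7.87 on untreated arrays. Fibroblast markers summed to 2.73 to 5.20 on TGFb arrays, against 2.12 to 3.48 on untreated arrays, with Dpt and Lum well above background on none and Pdgfra, Ly6a, Cd34 and Pi16 on all. Cd34 was by far the brightest of them, with log2 signals of 1.26, 2.29 and 1.90 on TGFb arrays, against 0.64, 0.61 and 1.58 on untreated arrays, and it did not pass a test (limma adjusted p = 0.101 in the day-adjusted fit). The log2 differences of Ly6a and Pdgfra with group alone were -1.22 and -0.07, so the sum does not describe the list. The fibroblast marker Dcn, well above background on 2 of 3 TGFb arrays, fell in the day-adjusted fit (limma adjusted p = 0.0164), as did the muscle filament gene Des (adjusted p = 0.0101). Macrophage markers, relevant to Spp1, summed to 0.751 to 1.19 on TGFb arrays, against 0.773 to 1.22 on untreated arrays, with Csf1r and Cd14 well above background on all 6 arrays, Cd68 and Lyz2 on none, and Ptprc on 1 treated array. Csf1r, the brightest of these, had log2 signals of -0.78, 0.01 and 0.13 on TGFb arrays, against -0.65, -0.59 and 0.21 on untreated arrays, and the groups overlapped. Pericyte markers summed to 14.2 to 36.6 on TGFb arrays, against 6.33 to 12.8 on untreated arrays, with Rgs5 well above background on all and Myh11 on none. Rgs5 rose by 1.57 ± 0.23 in the day-adjusted fit (limma adjusted p = 0.0168), while Abcc9 fell by 2.63 ± 0.26 with group alone (adjusted p = 0.0149). Endothelial markers summed to 0.428 to 2.95 on TGFb arrays, against 0.328 to 3.17 on untreated arrays, with Pecam1 and Kdr well above background on all arrays and Tek and Emcn on none. That range was set by Kdr, whose day term was -3.20 (limma adjusted p = 0.000411). The part of the fibroblast, macrophage and pericyte signals in the members' values was not tested.

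The genes whose pattern over the 6 arrays came closest to Fn1 were Ier5, an immediate early response gene, and Cpe, a carboxypeptidase, with root mean square differences of 0.0913 and 0.118 log2 units after each gene was centred on its own mean. Closest to Spp1 were Bmper, a secreted BMP-binding protein (0.178), and the cadherin Cdh10 (0.18). The log2 differences of Bmper and Cdh10, 2.54 and 2.31, are part of the pattern they were chosen for. Closest to Postn were Apaf1 (0.0737) and Parp4 (0.121). The likeness holds both the group difference and the day difference, and 6 arrays limit it.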

How the data were processed

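RNA of 6 myoblast samples was labelled with Cy3 and hybridised to 1-colour Agilent arrays, per the labels' protocols. The authors deposited scanner files of spot intensity, extracted with Agilent Feature Extraction 10.7.3.1, background-subtracted and detrended within the array per the file headers, and a table of log2 values normalized by the authors by a method that the sources used here do not name. Control spots and flagged outliers (176 to 365 per array) were left out. Processed intensity was put on a log2 scale and each array's 75th percentile subtracted. A gene was tested on its probe of highest mean among those well above background on at least 3 of 6 arrays. Names were updated through RefSeq for 26300 of 55681 probes. Group differences were fitted in R 4.3.3 with limma 3.58.1 (Benjamini-Hochberg over 21960 genes, threshold 0.05), with group as the only term and, beside it, with scan day. The fits were tested on simulated data. The group-only fit recovered 0% of simulated 2-fold changes, 8% of 4-fold and 38% of 8-fold ones, with 0 false calls. The day-adjusted fit recovered 10%, 94% and 96% of them, with 6 false calls. A gene that did not pass is thus not shown to be unchanged. The members and gene lists, and the scan-day fit, were chosen with earlier results of these data known. Named were all 9 members, the 4 genes of smallest adjusted p in each partner list, TGFb response genes (1 of which is not reported here), and the 2 genes closest in pattern to Fn1, Postn and Spp1. Alternatives were another background correction, normalization, filter, probe rule, blocks and single arrays left out. The labels call the samples biological replicates and name no animals, so p-values measure the spread between these samples. Probe positions are on mm9 and promoters on GRCm38.p6, and no position was moved between them. The number of arrays limits the precision.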

Additional observations from a re-analysis of the deposited data

How the results depend on the processing

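Under 26 alternatives, the count of genes past the threshold (307), of members (2) and of partner genes (3) stayed within 1.5 times these values under normexp, quantile normalization, both filters on dim probes and both other probe rules. Scan day as a term gave 2227 genes, 6 members and 12 partners. The authors' table gave 3303, 6 and 11, and 3418, 6 and 14 with scan day, a fit chosen after seeing the data. Slide as a block gave 790 genes, 3 members and 7 partners. Deviations of same-numbered arrays correlated at 0.808, -0.716 and 0.691, so not every pair met the limit of 0.1 for pairing. Pairs 1 and 3 each shared a scan day and pair 2 did not. Across genes, pairs 1 and 3 correlated no more closely than treated and untreated arrays of the same day with different numbers. Pair 2, which spanned the days, correlated less closely than these. Whether the replicate number added to scan day was not tested. The replicate block left 2 genes, 0 members and 0 partners, where limma gave 2955 genes at unadjusted p under 0.05. With scan day added, the replicate block left 0, 0 and 0, with 3613 genes unadjusted. Counting untreated replicates 1 and 2 as 1 sample left 0, 0 and 0 (1459 genes unadjusted), and with scan day, chosen after seeing the data, 674 genes, 3 members (Fbln2, Efemp1 and Spp1) and 5 partners. Leaving out single arrays, in both fits, gave 0 to 3320 genes, 0 to 6 members and 0 to 13 partners. The fits without scan day that called 0 genes were those without TGFb replicate 2, untreated replicate 1 or untreated replicate 2 (limma gave 1640, 1467 and 1470 genes unadjusted). These fits have fewer arrays, and other causes were not tested. Signs reversed in 2 cases, Postn in the authors' table (-0.21) and Fbln1 without untreated replicate 3 (0.12, range over single arrays left out -0.66 to 0.12); the cause was not tested. Member counts of 3 and 6 include Efemp1, which has a bound alone.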
